A study of Homo sapiens with 6 samples.

Results

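The members were the transcripts that GENCODE release 29 (GRCh38) types as nonsense-mediated decay (NMD) and that were detected in THP1, a human monocytic line established from acute myeloid leukaemia. They were chosen by this annotation and by a summed estimated count of 60 or more over the 6 libraries, so detection itself is a condition of membership and not a result. The rule left 4381 members in 3047 genes, of 14147 transcripts of this type and 163714 annotated transcripts in the deposited tables. Of these genes, 2156 had 1 member, 604 had 2 and 287 had 3 or more, with at most 12 in a gene. For single transcripts the comparison set was the 9045 protein-coding transcripts of the same genes that reached the same summed count. Protein-coding shares and sums per gene took in all 16741 protein-coding transcripts of these genes, without that cut. Polyadenylated RNA had been sequenced in 3 labelled groups of 2 libraries each. These were cells with a control hairpin (shCtrl, genotype labelled wild-type), cells with a hairpin against ALKBH5 (shALKBH5, labelled as a knock-down), and knock-down cells with ALKBH5 put back (ALKBH5 rescue). ALKBH5 removes the N6-methyladenosine mark from RNA, and the design asks what its loss and return do to the transcriptome. The labels do not say whether the cells are clones or whether replicates 1 and 2 come from separate cultures. The p-values therefore describe differences relative to a spread among libraries that may be technical.

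NMD is a cytoplasmic surveillance pathway that degrades mRNAs whose stop codon lies well before an exon junction. After splicing, an exon junction complex marks each junction, and a ribosome that ends translation before the last one leaves such a complex behind, which the helicase UPF1 and its partners UPF2 and UPF3 recognise. The kinase SMG1, the endonuclease SMG6 and the adaptor SMG5 carry the signal on to cleavage and decay. Many genes of splicing factors use the pathway to limit their own output, by including a "poison" exon that holds a stop codon.

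The level of ALKBH5 did not follow the group labels. It was 14.6, 12.4 and 13.55 CPM (counts scaled to the size of the library) in the libraries labelled shCtrl, shALKBH5 and ALKBH5 rescue replicate 1, and 1097, 1003 and 968 CPM in those labelled replicate 2. The 2 sets of 3 libraries did not overlap, and each group held 1 library of each kind. Group names below are therefore those of the labels only, and libraries are also compared by the replicate number in their titles, number 2 against number 1, since ALKBH5 separated by it. ALKBH5 itself had no member. Estimated counts totalled 14534386 to 24857373 per library, and members held 2.92% to 3.03% of the matched TPM (a level per unit of transcript length). All 12 monocytic marker genes reached 1 CPM on average, with a summed level of 3127 to 3860 CPM per library. Of 21 markers of other cell types, 3 reached 1 CPM, and the summed level of the list was 25.04 to 29.9 CPM.

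The coding ends of 6 members show what the annotation type means at the level of sequence. Each is the last coding stretch of the exon that holds the stop codon, read from the GENCODE transcript 5′ to 3′, with the stop codon in capitals. All but TICRR-203 are exons that no protein-coding transcript of the gene overlaps. The first 4 belong to splicing or decay genes, and the last 2 to genes with a large difference of the NMD form between the numbers.
SRSF3-203, exon 4 of 456 bases, chr6:36599821-36599854, plus strand: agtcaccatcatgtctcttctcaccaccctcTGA
SRSF6-202, exon 3 of 268 bases, chr20:43459212-43459304, plus strand: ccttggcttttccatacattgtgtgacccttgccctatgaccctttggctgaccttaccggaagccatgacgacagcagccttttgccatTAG
HNRNPU-228, exon 14 of 69 bases, chr1:244848809-244848856, minus strand: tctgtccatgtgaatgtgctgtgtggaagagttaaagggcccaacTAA
DHX34-202, exon 6 of 75 bases, chr19:47376915-47376967, plus strand: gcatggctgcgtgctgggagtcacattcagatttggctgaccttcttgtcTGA
GOSR1-203, exon 7 of 157 bases, chr17:30495426-30495441, plus strand: aggttttcagtggTGA
TICRR-203, exon 3 of 227 bases, chr15:89626994-89627086, plus strand: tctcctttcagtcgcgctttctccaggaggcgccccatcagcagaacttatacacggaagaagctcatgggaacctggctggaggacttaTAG

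These stop codons lay 548, 534, 176, 721, 171 and 96 bases before the last exon junction, in the order given. In TICRR-203 the stop is also that of an annotated protein-coding transcript. The exons of SRSF3-203, HNRNPU-228 and DHX34-202 have lengths that are multiples of 3, and each carries a stop codon in frame.

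Across all members, the stop codon preceded the last junction by more than 50 bases in 4342 of the 4373 with an annotated stop, against 92 of 7692 protein-coding transcripts of the same genes. This distance is part of how the type is assigned and is given as a check of the label. The median distance was 441 bases (quartiles 197 and 935), with a median of 3 junctions after the stop. Members had a median of 8 exons, 1637 bases and 333 coding bases, and the protein-coding transcripts a median of 9 exons, 2048 bases and 1068 coding bases. The stop codon was TGA in 2535 members, TAA in 902 and TAG in 846, of the 4283 whose sequence could be read.

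**Figure D1:**
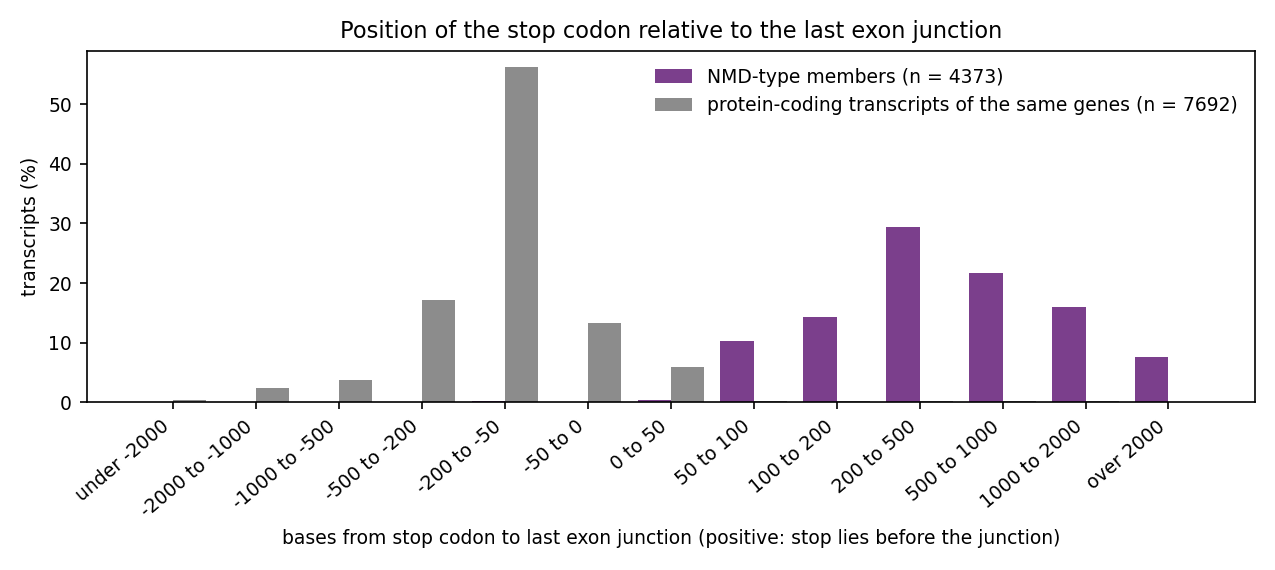
Distance from the stop codon to the last exon junction, in bases, for 4373 NMD members and 7692 protein-coding transcripts of the same genes, as a percentage of each set. Positive values place the stop before the junction; 29.4% of members fell between 200 and 500 bases and 56.2% of protein-coding transcripts had the stop 50 to 200 bases after the last junction.

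The members reached their early stop codon in several ways. In 2179 members the stop lay within the coding sequence of a protein-coding transcript but was read in another frame or created there, and these held 48.4% of the members' TPM. In 939 the stop was in an internal exon that no protein-coding transcript overlaps, here called a cassette exon, with a median length of 122 bases, of which 30.8% were multiples of 3. In 477 members the stop was that of a protein-coding transcript, so the type rests on splicing after the stop. These 477 held 21.4% of the members' TPM. A further 572 had the stop in other sequence outside the exons of protein-coding transcripts, 116 in an untranslated region of one, and 90 belonged to genes without a protein-coding transcript. The median share of the gene's TPM was 6.32% for the members with a cassette exon, 6.62% for those with the stop in other coding sequence and 6.54% for those with the stop of a protein-coding transcript. Across libraries it ran from 5.30% to 6.21% for the cassette exons.

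Many members are hard to tell from other transcripts of their gene. The tables were made by kallisto, which matches short words and divides reads that fit several transcripts. Transcripts were compared here by words of 31 bases, and no label gives the word length that kallisto was set to. Of the 4381 members, 922 held no 31-base word that is absent from the gene's other transcripts, 1353 held 1 to 30 such words, and 1478 held 100 or more. The share of members listed at 0 in at least 1 library was 24.95% with no such word and 9.34% with 100 or more, against 12.5% of the protein-coding transcripts. The median SD of log2 TPM among libraries of the same number was 0.61 with no such word and 0.39 with 100 or more. The number of these words is given beside some of the members named below.

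The NMD members of a gene together held a median of 11.2% of its TPM (quartiles 4.66% and 24.4% over genes, mean of 6 libraries). They held under 5% in every library in 497 genes and over 50% in every library in 149. In 82 of the genes the tables list no protein-coding transcript. Members of genes without one had a median share of 100% in every library, so annotation bears on such high shares. How many of the 149 are such genes was not counted, and they are included in the sets by level below. The share differed with the level of the gene. Its median was 38.3% in the 261 genes under 5 TPM, 14.8% in 808 genes of 5 to 20 TPM, 10.1% in 1418 genes of 20 to 100 TPM and 3.83% in 560 genes of 100 TPM or more. The cut at 60 counts bears on the first of these groups, since a transcript of a weakly expressed gene passes it only when it takes a large share. Among the genes of 100 TPM or more the median was 4.31%, 4.39% and 4.12% in the shCtrl, shALKBH5 and ALKBH5 rescue libraries of number 1, and 3.43%, 3.66% and 3.70% in those of number 2. Among genes of 20 to 100 TPM it was 10.18%, 10.35% and 10.23% in number 1 and 9.58%, 9.55% and 9.62% in number 2. The number 2 libraries were thus all lower in both of these sets of genes. Among genes of 5 to 20 TPM each number 2 library was lower than its pair, but the numbers overlapped. Under 5 TPM the shALKBH5 pair went the other way. Members with 1 junction after the stop had a median share of 7.72%, and those with 5 or more 5.94%.

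By group, the mean share over the 3037 genes detected in every library was 18.6% ± 0.0042 (SD, n = 2) in shCtrl, 18.1% ± 0.20 in shALKBH5 and 18.4% ± 0.84 in ALKBH5 rescue. These means differed by less than the SD of the rescue libraries. By number, the libraries labelled shCtrl, shALKBH5 and ALKBH5 rescue gave 18.6%, 18.3% and 19.0% in number 1 and 18.6%, 18.0% and 17.8% in number 2. The difference of number 2 from number 1 was -0.49 percentage points, with an SD of 0.62 over the 3 pairs, and the sets overlapped. The median over genes was 11.0%, 10.9% and 11.2% in number 1 and 10.6%, 10.1% and 10.3% in number 2, lower in number 2 in every pair. Summing TPM over genes gave the other direction, 9.51%, 9.49% and 9.41% in number 1 and 10.0%, 9.87% and 9.82% in number 2. Without B2M, which is described next, the difference between the numbers went from 0.43 to 0.12 points, with number 2 higher in 2 of 3 pairs. The protein-coding transcripts of the same genes held 57.8% ± 0.063 (SD, n = 3) on average in number 1 and 59.5% ± 0.47 in number 2. They were higher in number 2 in 3 of 3 pairs. Transcripts of other types, such as retained introns, held 23.5% ± 0.41 and 22.4% ± 0.065 and were lower in number 2 in every pair. This class includes NMD-type transcripts under 60 counts. No test was made of these means, because the members were chosen with results of these data known.

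**Figure D2:**
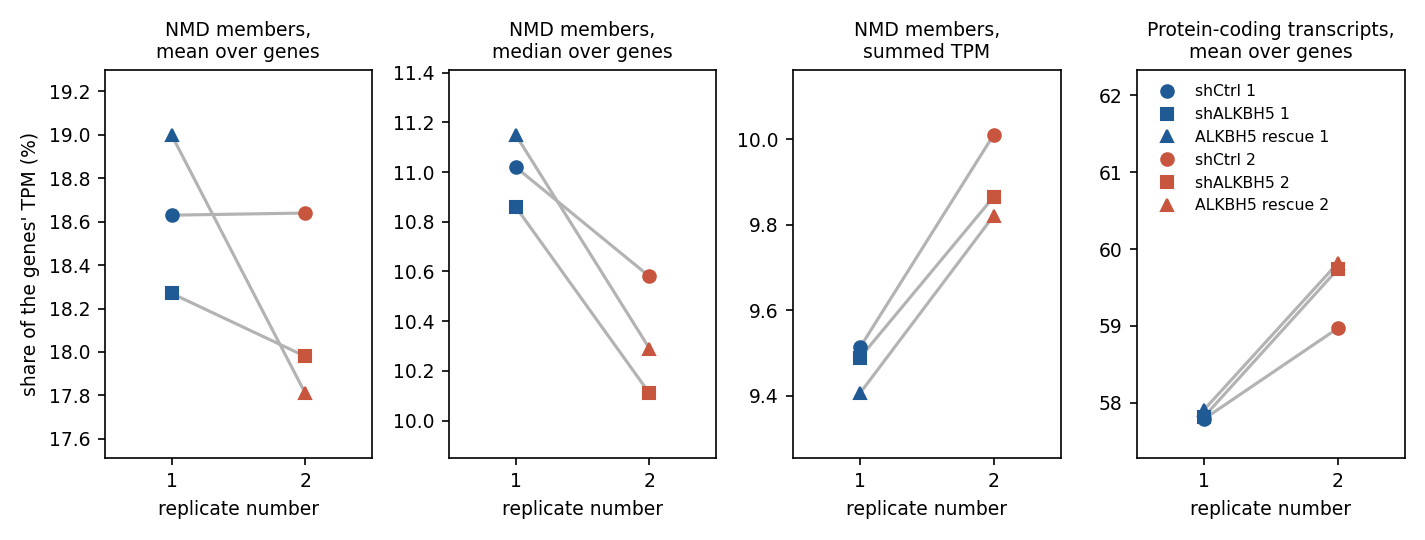
Share of the genes' TPM held by NMD members (mean and median over 3037 genes, and summed TPM) and by protein-coding transcripts in each of the 6 libraries, by replicate number, with lines joining the libraries of a group. Each panel has its own vertical axis, which does not start at 0; the number 2 libraries sit lower for the median NMD share and higher for the summed NMD share and the protein-coding share.

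The most abundant members came from highly expressed genes in which the annotated NMD form was a main form. B2M encodes the light chain of MHC class I. Its transcript B2M-212 ends at the stop codon of a protein-coding transcript (chr15:44716329-44716342, atcgagacatgTAA), 112 bases before a last junction in the untranslated region. B2M-212 stood at 1632, 1472 and 1626 TPM in number 1 and 2030, 2113 and 2230 TPM in number 2, in the order shCtrl, shALKBH5 and ALKBH5 rescue. B2M-201, with 67 bases between stop and junction, stood at 1103, 869 and 1196 TPM in number 1 and 1456, 1417 and 1505 TPM in number 2. Both were higher in every number 2 library, while their joint share of the gene stayed at 80.0% to 85.4%. B2M-212 held 30 words of its own and B2M-201 held 25, so their division from the protein-coding form rests on short stretches. COX6C-207, of a subunit of cytochrome c oxidase, held 74.0% to 86.3% of its gene over the libraries and is distinct by 93 words.

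HNRNPA1-205, PPT1-208 and RACK1-224 were the next members by TPM, with only 27, 26 and 17 words of their own. HNRNPA1-205, of an abundant splicing repressor, held 31.8% to 35.1% of its gene. PPT1-208, of a lysosomal thioesterase, varied from 7.4% to 36.4%, with its lowest value in ALKBH5 rescue replicate 2. PDIA3 encodes a disulphide isomerase of the endoplasmic reticulum. PDIA3-202, whose cassette exon of 175 bases ends its reading frame within 49 bases, is distinct from other forms by 205 words. It stood at 199, 153 and 198 TPM in number 1 and 237, 261 and 324 TPM in number 2, which did not overlap. Its share was 35.2%, 29.9% and 37.2% in number 1 and 37.2%, 42.7% and 51.7% in number 2.

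The NMD shares of splicing factor genes ranged widely, and their medians lay near the 11.2% of all genes with members. Of 14 genes of the SR and TRA2 families, which bind exons and promote their inclusion, 11 had members, 19 in all. SRSF6-202 held 84.6%, 81.3% and 86.2% of its gene in number 1 and 85.4%, 80.0% and 80.1% in number 2, and is distinct by 298 words. SRSF3-203 held 38.9%, 38.4% and 39.2% in number 1 and 39.4%, 39.4% and 37.3% in number 2, so the sets overlapped. It is distinct by 30 words. TRA2B-206, with no word of its own, held 22.7% to 28.0%, and the members of SRSF7 and SRSF2 together 20.8% and 11.3% on average. Across the 11 genes the median share was 11.3%, with a range of 0.598% to 82.9%.

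Of 29 hnRNP and other splicing genes, 21 had members, 38 in all, and the median share per gene was 13.4%. HNRNPU, an abundant nuclear RNA-binding protein, had the highest share at 54.5%. HNRNPU-228 alone held 45.3%, 39.9% and 38.0% of its gene in number 1 and 36.1%, 46.5% and 50.2% in number 2, so the sets overlapped. HNRNPU-228 is distinct by 26 words. RBM39, a splicing cofactor, followed HNRNPU at 41.6% with 5 members. The cytosolic ribosomal protein genes lay at the other end. Of 77, 23 had members, with a median share of 0.615%, and RPS3 had the highest at 16.2%.

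**Figure D3:**
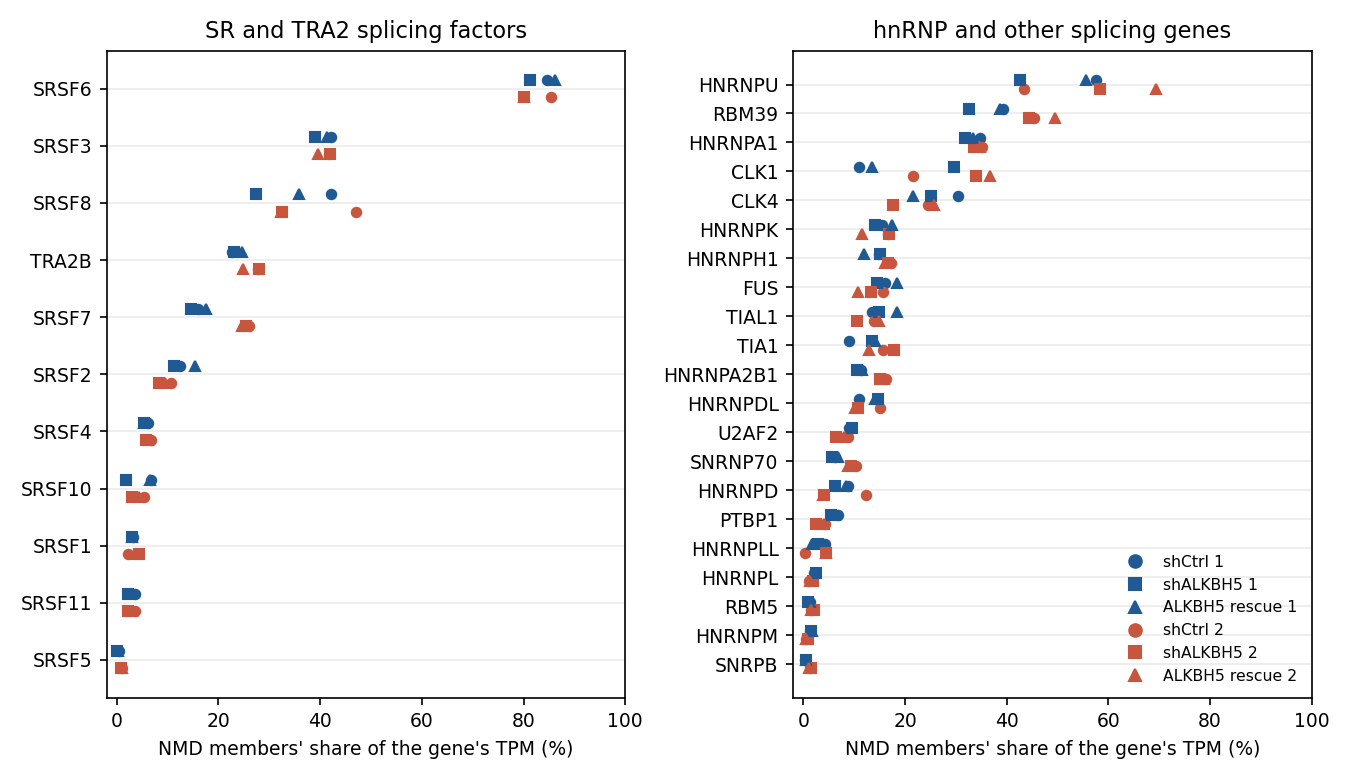
Share of the gene's TPM held by its NMD members (horizontal axis, %) in each library for 11 SR and TRA2 genes and 21 hnRNP and other splicing genes. Symbols mark the labelled group and colours the replicate number; SRSF6 (82.9% on average), HNRNPU (54.5%) and RBM39 (41.6%) are highest.

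Of 18 decay factor genes, 4 had 1 member each, among them DHX34, ETF1 and SMG9. DHX34-202, of a helicase that acts with UPF1, held 24.2%, 23.7% and 25.3% of its gene in number 1 and 21.4%, 15.3% and 23.3% in number 2, in the order of groups given above, lower in every number 2 library. DHX34-202 is distinct by 57 words. Of 10 exon junction complex genes, ACIN1, MAGOHB and RNPS1 had members, 5 in all. ACIN1-206, of a factor that joins splicing to the junction complex, held 8.9% to 10.8% over the libraries.

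By edgeR and limma, no member passed the threshold in any of the 3 comparisons between labelled groups. edgeR's quasi-likelihood test on the estimated counts of 58909 transcripts called 0 members of 4363 tested (0% of all transcripts, adjusted p under 0.05) for shALKBH5 against shCtrl, ALKBH5 rescue against shALKBH5 and ALKBH5 rescue against shCtrl. At an unadjusted p under 0.05 it gave 86, 84 and 83 members. DESeq2 called 15, 9 and 5 members, with 0.183%, 0.17% and 0.175% of all transcripts. limma on the log2 ratio of a transcript's TPM to the rest of its gene also called 0 of 4285 members in each, with 144, 117 and 106 at an unadjusted p under 0.05, and 0% of the 49520 transcripts tested. A block for replicate number added no call in either test. With it, edgeR gave 171, 145 and 159 members at an unadjusted p under 0.05, and limma 205, 161 and 172. The median standard error of a member's log2 change in the edgeR fit was 0.69 without the block and 0.55 with it. In simulated data of this design for number 2 against 1, 3% of transcripts changed 2-fold and 83% of those changed 4-fold were recovered, and the standard error for that comparison was smaller, with a median of 0.46. The changed transcripts were drawn only from those above a floor of mean CPM, so recovery of weaker members was not covered. Among the 58909 simulated transcripts, 18 unchanged ones were called beside the recovered ones. Recovery in the group comparisons was not simulated.

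Of the 693 members in genes of at least 5 TPM with a share of at least 5% and 100 or more words of their own, those with the smallest p and no overlap between groups are described here, and other members came closer to a call. SMARCAD1-207, of a chromatin remodeller, held 32.4% and 39.3% of its gene in shCtrl. It held 8.1% and 10.2% in shALKBH5, against 32.8% and 15.8% in ALKBH5 rescue. Its log2 ratio differed by -2.34 ± 0.63 (SE) between shALKBH5 and shCtrl, with a limma adjusted p of 1. MSRB2-203, of a mitochondrial methionine sulphoxide reductase, held 8.9% and 22.2% in shCtrl and 13.4% and 15.6% in shALKBH5, and was listed at 0 in both rescue libraries. Its limma adjusted p was 0.76 against shALKBH5. MSRB2-203 had a summed count of only 73.4, all of it from the shCtrl and shALKBH5 libraries. It thus met the count rule for members only through the groups in which it was high, so this difference is conditioned by that rule. DEAF1-210, of a transcription factor, held 5.6% and 7.8% in shCtrl, against 14.8% and 12.5% in shALKBH5 and 12.3% and 13.5% after rescue. TUBGCP2-208, of a gamma-tubulin complex protein, held 20.5% and 15.6%, 9.4% and 9.9%, and 16.1% and 12.4% in the same order. None of these differences passed the adjusted test.

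Between the numbers, edgeR and limma likewise called no single member. edgeR called 0 of 4363 members and 1 of all 58909 transcripts (0.0017%) for number 2 against 1, and DESeq2 called 256 members, with 8.53% of all transcripts. At an unadjusted p under 0.05 edgeR gave 750 members (17.2%), below the 20.7% of all transcripts. For the share of the gene, limma called 0 of 4285 members (0% of all) and gave 591 (13.8%) at an unadjusted p under 0.05, against 14.7% of all transcripts. By the way the stop is reached, this last percentage was 11.8% for cassette exons, 14.3% for stops in other coding sequence and 13.2% for stops shared with a protein-coding transcript, all near the background.

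Estimated counts were then summed per gene into NMD members, protein-coding transcripts and other transcripts, a step chosen after seeing the data because sums vary less than single transcripts. In the simulation 84% of sums changed 2-fold were recovered. Only a small part of the 24890 simulated sums was changed, and 29 unchanged sums were called beside the recovered ones. The changed sums were drawn only from those above a floor of mean CPM, so this recovery does not cover weaker sums. For number 2 against 1, edgeR called 447 of 3038 NMD sums (14.7%), of which 170 were higher and 277 lower in number 2. Over all 24890 sums 23.7% were called, 11.7% higher and 11.9% lower. The protein-coding sums of the same genes were called more often, 971 of 2917, with 557 higher and 414 lower. The median log2 change was -0.04 for the NMD sums, 0.07 for the protein-coding sums and 0.02 over all sums. The numbers of calls followed depth. Under 200 summed counts 5.74% of 1081 NMD sums and 2.90% of 69 protein-coding sums were called, and at 5000 or more 32.6% of 95 and 42.1% of 1190, while the median NMD sum had 329 counts and the median protein-coding sum 3671. The count of 447 fell to 85 without shALKBH5 replicate 1 and to 91 without shALKBH5 replicate 2. With DESeq2 it was 399, where 21.3% of all sums were called. It was 180 of 1337 sums when only members with 100 or more words of their own were summed. Between labelled groups edgeR called 0 NMD sums in each comparison (0% of all sums), with 90, 80 and 83 at an unadjusted p under 0.05, and DESeq2 called 2, 4 and 3, with 0.0161%, 0.0201% and 0.0201% of all sums. For the ratio of the NMD sum to the rest of the gene, limma called 0 of 2942, with 383 (13.0%) at an unadjusted p under 0.05, against 16.8% of all sums.

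NMD sums moved with the protein-coding transcripts of the same gene in part. In the 557 genes whose protein-coding sum was higher in number 2, the median log2 change was 0.66 for that sum and 0.28 for the NMD sum, and 65 NMD sums were higher and 32 lower. In the 414 genes whose protein-coding sum was lower, the medians were -0.55 and -0.55, with 9 NMD sums higher and 88 lower. In the 1937 genes whose protein-coding sum was not called, the medians were 0.04 and -0.03, with 89 NMD sums higher and 153 lower. Of the 447 called NMD sums, 436 had a tested protein-coding sum. Of these, 153 were called in the same direction, 41 in the opposite direction and 242 had a protein-coding sum that was not called. Reads shared between the forms of a gene are divided by kallisto, so both sums of a gene draw on some of the same reads.

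**Figure D4:**
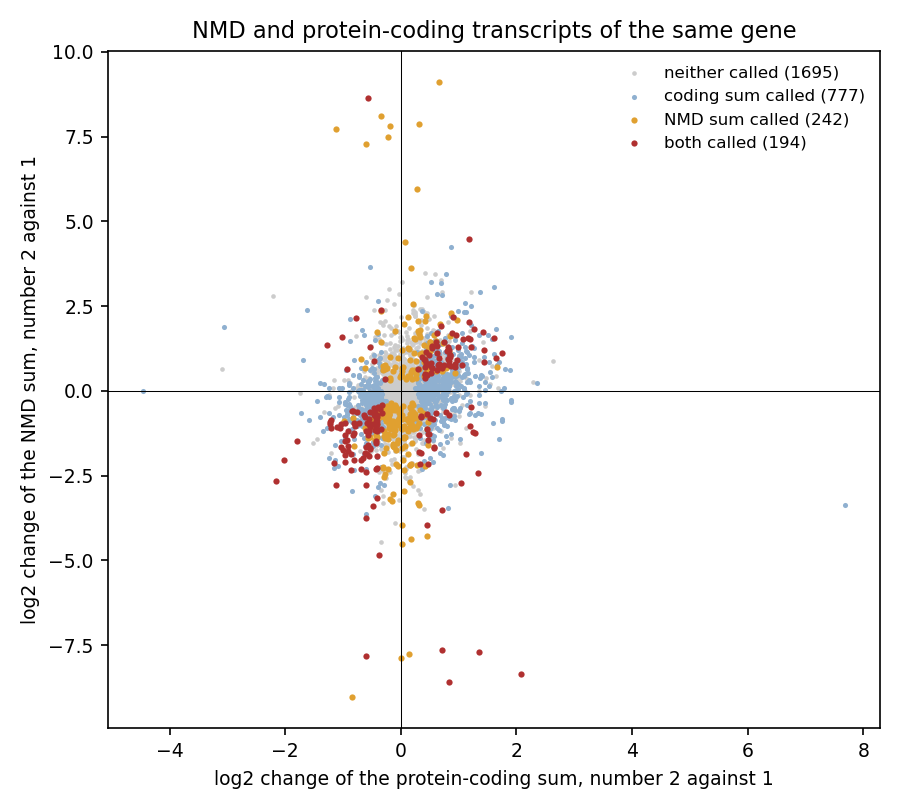
log2 change from number 1 to number 2 of the protein-coding sum (horizontal axis) and of the NMD sum (vertical axis) for the genes with both sums tested, by edgeR. Colours mark which sum was called; in 194 genes both were, and a few NMD sums lie beyond 5 on the log2 scale because they had under 0.5 counts in each library of 1 number.

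The genes named for the largest change had a mean of at least 5 TPM, an NMD share of at least 5%, a member with 100 or more words of its own and no overlap between the numbers. These conditions left 67 genes higher and 82 lower, and the 8 with the largest change in each direction were taken. RHBDD3, a rhomboid domain protein, gave the clearest opposite movement of both forms. Its NMD sum, the single member RHBDD3-203, stood at 31.3, 29.1 and 33.3 CPM in number 1 and 5.31, 5.44 and 6.90 CPM in number 2, in the order shCtrl, shALKBH5 and ALKBH5 rescue. It fell by 2.41 ± 0.12 (SE) on the log2 scale (edgeR adjusted p = 0.0025), while the protein-coding sum rose by 1.34 ± 0.21 (adjusted p = 0.012). The NMD share was 28.3%, 26.3% and 32.3% in number 1 and 8.01%, 9.13% and 10.1% in number 2.

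GOSR1, a SNARE protein of Golgi transport, showed the largest fall among the named genes. GOSR1-203, whose exon adds 16 coding bases with the stop codon, stood at 6.86, 6.37 and 5.10 CPM in number 1 and 0.21, 0.37 and 0.82 CPM in number 2. It fell by 3.76 ± 0.47 (adjusted p = 0.0074), and the protein-coding sum fell by 0.61 ± 0.076 (adjusted p = 0.0073). Its share was 16.5%, 16.1% and 13.4% against 0.68%, 1.45% and 2.57%. The number 2 shares all lay under the 5% asked for naming, so GOSR1 met that condition only through number 1. Its change is conditioned by that rule.

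TICRR, a replication initiation factor, had higher NMD sums in number 2. TICRR-203 stood at 3.14, 3.55 and 3.98 CPM in number 1 and 12.1, 12.8 and 10.3 CPM in number 2. It rose by 1.71 ± 0.18 (adjusted p = 0.0053), more than the protein-coding sum, which rose by 0.62 ± 0.077 (adjusted p = 0.0073). ZNF671, a zinc finger gene, had an NMD sum of 1.79, 1.01 and 2.18 CPM in number 1 and 6.43, 5.82 and 8.03 CPM in number 2. It rose by 2.06 ± 0.24 (adjusted p = 0.0062), with a share of 12.4%, 7.72% and 14.3% against 33.3%, 32.0% and 36.6%, and the protein-coding sum was not called (log2 change 0.42 ± 0.17, adjusted p = 0.13). KIAA2026, a gene of little described function, rose by 1.66 ± 0.16 (adjusted p = 0.0043) over 2 members, and its share of 29.9%, 22.0% and 36.2% against 37.9%, 39.0% and 38.2% moved less, since the protein-coding sum also rose by 0.95 ± 0.22. These 5 genes and UPP1 kept their call without each of the 6 libraries in turn.

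The other named genes kept their direction but lost the call without at least 1 library. Those higher in number 2 were EPOR (log2 change 2.08), the erythropoietin receptor; AL157392.5 (1.98); MSH5 (1.98), a MutS homologue of meiosis; CNOT9 (1.75), a subunit of the CCR4-NOT deadenylase; and OXR1 (1.72), an oxidation resistance gene. CNOT9-204 held 1.65%, 3.99% and 4.10% of its gene in number 1 and 9.81%, 10.4% and 11.3% in number 2, and its protein-coding sum was not called (-0.11 ± 0.078). Lower in number 2 were ZC3HC1 (-2.79), BICDL1 (-2.67), a dynein adaptor, ASH1L (-2.23), a histone methyltransferase, PCTP (-2.21), a phosphatidylcholine transfer protein, RMND1 (-2.17), required for mitochondrial translation, and PYCR3 (-2.03), an enzyme of proline synthesis. The ZC3HC1 member held 16.1%, 20.2% and 17.6% in number 1 and 5.57%, 3.04% and 8.42% in number 2. ASH1L, PCTP and RMND1 had protein-coding sums that were not called, and BICDL1 fell in both sums, by 2.67 and 2.16. AL157392.5, CNOT9 and ASH1L lost the call whichever of the 6 libraries was left out. The adjusted p of these 11 genes without 1 library ran up to 0.21. CNOT9 had a share under 5% in every number 1 library, and ASH1L and RMND1 in every number 2 library. These genes met the share condition only through the number in which they were high.

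**Figure D5:**
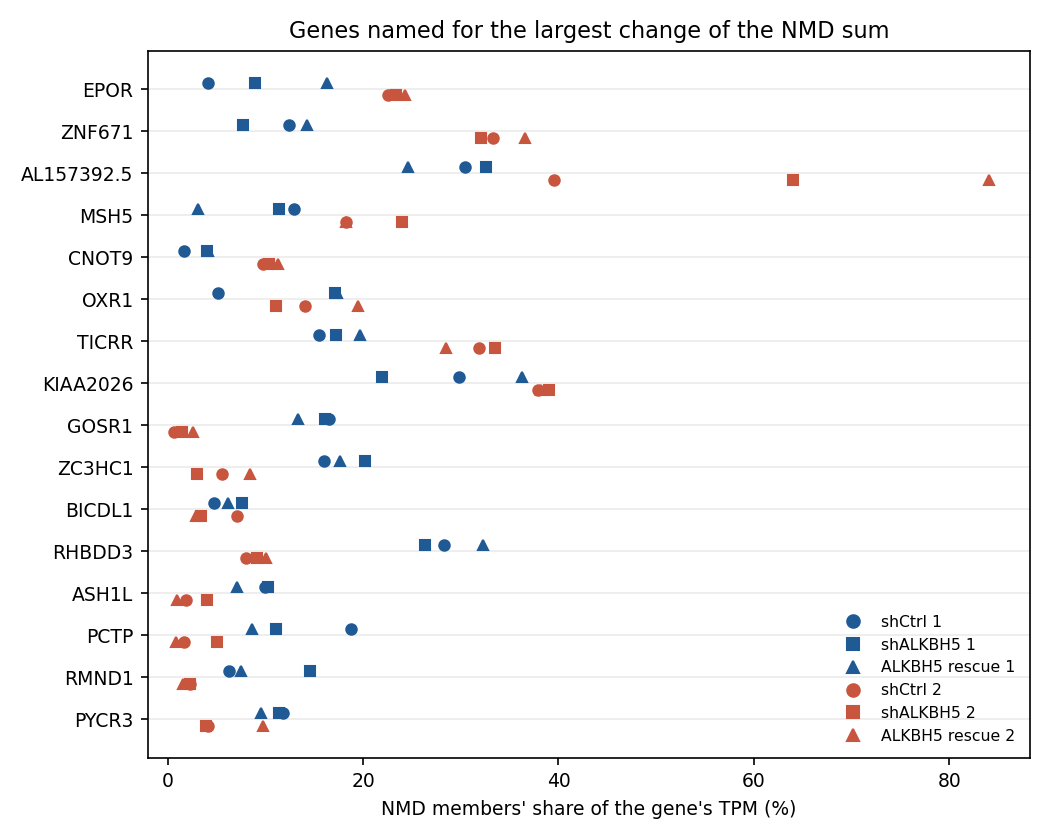
Share of the gene's TPM held by its NMD members (horizontal axis, %) in each library for the 16 genes with the largest change of the NMD sum, higher in number 2 above and lower below. Symbols mark the labelled group and colours the replicate number. No overlap of the NMD sum between the numbers was a condition of naming. The shares overlap between the numbers for OXR1, BICDL1 and PYCR3 and not for the other genes.

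NMD sums of genes on the lists are read here against the 14.7% of all NMD sums called between the numbers. Of 11 SR and TRA2 genes 1 fell, SRSF2 (-0.83 ± 0.12), and none rose. Of 21 hnRNP and other splicing genes, HNRNPA2B1 (0.34 ± 0.076) and TIA1 (1.22 ± 0.23) rose, and PTBP1 (-1.08 ± 0.17), HNRNPL (-1.07 ± 0.20) and HNRNPM (-1.45 ± 0.32) fell. The medians were -0.0035 and 0.12. HNRNPA2B1 moved against its protein-coding sum, which fell by 0.27 (adjusted p = 0.035). In RBM39 and SRSF7, chosen after their values were seen, the protein-coding sum fell by 0.89 and 0.69 (adjusted p = 0.0053 and 0.0048), while the NMD sum had a log2 change of 0.24 ± 0.082 and 0.21 ± 0.13 and was not called. Of 23 ribosomal protein genes 5 fell (RPL13A, RPL27A, RPL29, RPL37A and RPS14) and none rose, with a median of -0.55 beside -0.04 for all NMD sums. The level of these genes moved with this: at gene level 55 of the 77 ribosomal protein genes were lower in number 2 and 1 was higher, with a median of -0.41, where 22.6% of all genes were lower and 22.8% higher. Of 3 exon junction genes ACIN1 fell (-0.46 ± 0.078), and of 4 decay factor genes none was called. Of these called sums on the lists, each lost its call without at least 1 library, and RPL29 and RPS14 whichever of the 6 was left out. CSF1R, the only one of 12 monocytic markers with members, had a log2 change of -0.02 ± 0.28. The edgeR adjusted p of the called sums ran from 0.011 to 0.047, apart from UPP1.

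UPP1 and TBL2 are on the list of genes with transcripts known to be targets of the pathway, and were its only genes with members. The NMD sum of UPP1, a uridine phosphorylase, fell by 1.87 ± 0.19 (edgeR adjusted p = 0.0048), and its protein-coding sum by 0.87 (adjusted p = 0.014). UPP1-202 held 52.1%, 45.0% and 43.4% of the gene in number 1 and 34.1%, 23.1% and 26.5% in number 2, without overlap, but holds no word of its own. The NMD sum of TBL2 fell by 0.86 ± 0.23 (adjusted p = 0.047). Counting only members with 100 or more words of their own, neither sum was called (adjusted p 0.23 and 0.20).

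In 16 of the 447 called sums the member had under 0.5 estimated counts in each of the 3 libraries of a number, 8 in number 1 and 8 in number 2. WASHC4-208, of a subunit of the WASH complex, had 50.2, 102 and 53.9 estimated counts in number 2 and under 0.5 in each number 1 library, at least 72.5-fold higher against a floor of 3 counts over the 3 libraries. ABCC5-206, of an efflux transporter, had 57.2, 7.89 and 24.98 counts in number 2 and 0 in number 1, at least 31.7-fold higher. Of the 16, 5 reached 0.5 counts in all 3 libraries of the other number. SELENOT-206, for example, had 86.3 and 49.8 counts in shALKBH5 and ALKBH5 rescue replicate 2 and 0 in shCtrl replicate 2. Each of the 16 reached the summed count of 60 only through the number in which it was high, so these calls and folds are conditioned by the rule that chose the members. In 14 of the 16 no member had 100 words of its own, and WASHC4-208 had none at all.

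The genes of the decay machinery themselves differed between the numbers. At gene level edgeR called 14 of 18 decay genes for number 2 against 1, with 8 higher and 6 lower, where 45.4% of 14497 genes were called. The median log2 change of the list was 0.17, against 0.01 over all genes. UPF1, the central helicase, fell from 200 ± 1.7 to 145 ± 7.3 CPM (SD, n = 3), by 0.47 ± 0.079 on the log2 scale (edgeR adjusted p = 0.0013). UPF2, its activator, rose from 51.9 ± 3.5 to 89.4 ± 12 CPM, by 0.78 ± 0.11 (adjusted p = 0.00049). PNRC2, a decapping cofactor, rose by 0.48 ± 0.096, and XRN1, the exonuclease that degrades decapped RNA, rose from 29.4 ± 7.5 to 52.8 ± 12 CPM. The release factor genes GSPT1 and ETF1 fell by 0.50 ± 0.10 and 0.40 ± 0.088, and DHX34 fell by 0.46 ± 0.099. Genes of the pathway thus moved in both directions. Without shALKBH5 replicate 1 or 2 the calls were 6.

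Of 10 exon junction complex genes 7 were called, with UPF3B, which is on both lists, higher (0.38 ± 0.10) and ACIN1, MAGOH, PYM1, RBM8A, RNPS1 and SAP18 lower, by 0.32 to 0.68. Of 16 genes whose mRNAs are known targets of the pathway, 10 were tested, 3 rose and 4 fell. ASNS, asparagine synthetase, rose by 1.18 ± 0.11, and the stress response factors ATF4 and DDIT3 rose by 0.35 and 0.47. UPP1, NAT9, GADD45B and TBL2 fell by 1.22, 0.77, 0.69 and 0.56. The median of the 10 was -0.28. Between labelled groups edgeR and DESeq2 called 0 of the 18 decay genes in each comparison, and 0 had an unadjusted p under 0.05.

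At the edge of the rule, PIGT-229, SEPT1-209 and DDX41-210 were just inside, at summed counts of 60.05, 60.04 and 60.06, and PSMC6-205, ALDH3A2-216 and COPG1-209 were just outside, at 59.96, 59.90 and 59.88. SEPT1-209 held 14.6% to 67.1% of its gene over the libraries, and DDX41-210 at most 1.7%.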

How the data were processed

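The authors deposited 1 transcript abundance table per library. Of the tools and builds, the submitters' processing notes name kallisto 0.43.1, CASAVA and hg38. For the options and the strand setting, no label or header gives a value. From the deposited tables, estimated counts (expected counts that need not be whole) and TPM were used, beside each transcript's length and effective length. Identifiers were matched without version to GENCODE release 29 (GRCh38), and the unmatched transcripts, 3.13% to 3.32% of counts, were left out. Members and gene lists were chosen with earlier results of these data known.

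Estimated counts were rounded and tested by the quasi-likelihood method of edgeR 4.0.16 under R 4.3.3 (all 6 libraries, filterByExpr, TMM scaling, group alone for group comparisons, group and replicate number for number 2 against 1). The log2 ratio of a transcript's deposited TPM to the rest of its gene (0.1 TPM added to each, both at 60 or more summed counts) was tested with limma 3.58.1. P-values were adjusted by Benjamini-Hochberg over all features at 0.05. A standard error is the absolute log2 change over the square root of the F statistic. Sums per gene, among which NMD-type transcripts under 60 counts fall in the other class, were added after seeing the data. DESeq2 1.42.0 and the other alternatives are described in the closing section. Simulated data were used to test the edgeR fit of number 2 against 1, on transcripts and on sums, and a simpler limma fit on random log ratios. DESeq2, the group comparisons and the fit to the TPM ratios themselves were not tested in this way.

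Same-numbered libraries deviated together (correlations of deviations from the group means 0.198 to 0.337 for log2 CPM and 0.12 to 0.295 for the log2 ratios), so the numbers were treated as pairing the libraries. No label states a shared day. Named items were, by rule, the largest changes past the threshold without overlap between numbers, the smallest p in each group comparison, the 10 highest by TPM and by share, members on the gene lists, and those next to the count of 60. The rule for largest changes was carried over from members to sums, and the decay genes named are from the 8 of smallest adjusted p. Some items these rules chose are not reported here. The labels' protocols mention no molecular identifiers, so counts are of reads and not of molecules.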

Additional observations from a re-analysis of the deposited data

How the results depend on the processing

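For single members the calls stayed at 0 with the replicate block (0 in each of the 3 group comparisons by counts and by share), with each library left out, with RLE size factors, with a filter of 1 CPM in 2 libraries, with members of 120 or more counts or of 100 or more gene-specific 31-base words, and with other pseudocounts or the ratio of estimated counts. DESeq2 called 15 members for shALKBH5 against shCtrl, 9 for ALKBH5 rescue against shALKBH5, 5 for ALKBH5 rescue against shCtrl and 256 for number 2 against 1, and edgeR with no filter on low counts called 5 for the last. The NMD sums called between the numbers were 85 to 501 without 1 library, 444 with RLE, 399 with DESeq2 and 180 with members of 100 or more words of their own, where fewer sums were tested. Leaving out a library removes its pair from this comparison. DESeq2 called 2, 4 and 3 NMD sums in the 3 group comparisons. Decay genes called were 6 to 14 without 1 library. The difference in mean NMD share, -0.49 points, ran from -0.74 to -0.31 without 1 library, was -0.68 for the median over genes and 0.43 for summed TPM. The cause of these differences between settings was not tested. The replicate block changed no call for the sums or the decay genes. Of 30 named sums, 6 kept their call without each library in turn and none changed direction. Depth also limits single members: the median member had 222 counts over 6 libraries. The settings for the sums, the left-out libraries for the mean share and the removal of B2M were chosen after seeing the data.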

Other observations

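Of the 10 members with the highest share among genes of at least 5 TPM, 7 belong to genes with a clone-based or read-through name and no annotated protein-coding transcript, such as HNRNPUL2-BSCL2-201 at 35.7 TPM and AL713999.1-201 at 33.1 TPM, each 100% of its gene in every library. In these genes the share sets the NMD form against no protein-coding form. Words were compared only within a gene, so sequence that a read-through transcript shares with other genes was not considered. LSM6-207 and DDA1-204, of a small ribonucleoprotein and a ubiquitin ligase component, held 89.4% and 86.9% on average of genes that also have protein-coding transcripts, and both end at the stop codon of one.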
